A study of Gallus gallus with 8 samples.

Results

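The genes described here encode the enzymes that build and sulfate glycosaminoglycans, the long sugar chains of proteoglycans, in intervertebral discs (IVDs) of the chicken tail. They were taken as the rows of the count table whose symbol is in a list of 43 genes, and 41 of the 43 were found among 24154 genes. *B3GAT3* and *SLC26A2* were not found under these symbols and were skipped. Of the 41 genes found, 40 passed the filter on low counts, beside 13639 genes that passed it in all. *NDST4* was left out of the test, with 20 counts summed over the fusing libraries and 17 over the free libraries. The list was split by function into 5 tested genes of the linker, 16 of chondroitin and dermatan sulfate, 14 of heparan sulfate and 5 of sulfate supply.

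Fusing pygostyle IVDs and free IVDs of the tail were compared by RNAseq at 10 weeks of age, with 4 libraries of polyA-selected mRNA per tissue. The pygostyle discs are in the course of being degraded and replaced by bone, and the free caudal discs are permanent. The birds were untreated and carried no transgene. The labels name their breed as white leghorn and the study's methods as Tetra, from 8 birds, and neither states whether both kinds of disc came from the same birds. The p-values therefore measure the spread between these libraries.

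A glycosaminoglycan chain is built in the Golgi on a serine of a core protein. Xylose, galactose, galactose and glucuronic acid are joined into a linker that chondroitin sulfate and heparan sulfate share. Adding an N-acetylgalactosamine next starts chondroitin sulfate, and adding an N-acetylglucosamine starts heparan sulfate. Polymerases then lengthen the chain, epimerases turn glucuronic into iduronic acid, and sulfotransferases add sulfate at set positions from the donor PAPS. In cartilage and disc the chondroitin sulfate chains of aggrecan hold water, and heparan sulfate binds growth factors at the cell surface. The roles given below are those known from the mammalian enzymes.

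Of the 40 tested genes, 15 were lower and 2 higher in fusing pygostyle IVDs, and 23 were not called (edgeR quasi-likelihood test, p below 0.05 after Benjamini-Hochberg adjustment across all genes). Over all tested genes 19.6% were called lower and 19.6% called higher. With a fold change over 2 as well, 8 members were lower and 2 higher, beside 9.64% and 13.2% of all genes. All 4 fusing libraries lay below all 4 free libraries for 13 members (20.2% of all genes) and above them for 2 (19.6%). These positions were taken after scaling with TMM factors, which were 1.14 to 1.38 in fusing and 0.70 to 0.86 in free libraries. They depend on that scaling and were not counted under library totals. The median log2 fold change of the members was −0.49, and that of all tested genes was 0.013. When libraries were scaled by their totals in place of TMM factors, the median of all genes shifted by 0.69 and that of the members became 0.17, with 7 members called lower and 12 higher. Under that scaling 7.12% of all genes were called lower and 60.3% higher, so counts of higher genes must be read beside that share. *SULF1*, *XYLT1*, *HS3ST1*, *CHSY1*, *CHST13*, *CSGALNACT2* and *DSE* were the 7 that were called lower under both scalings, and *XYLT2*, *B4GALT7*, *FAM20B*, *CHPF*, *UST*, *EXTL3*, *SULF2* and *PAPSS1* were called lower with TMM factors only. With the replicate number as a block, 22 members were called lower and 4 higher. With the code in the sample titles as a block, 13 were called lower and 3 higher. That block pairs the libraries otherwise only in part and leaves some unpaired. Of the 9 calls that the replicate number added, only that of *IMPAD1* was made with it.

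**Figure D1:**
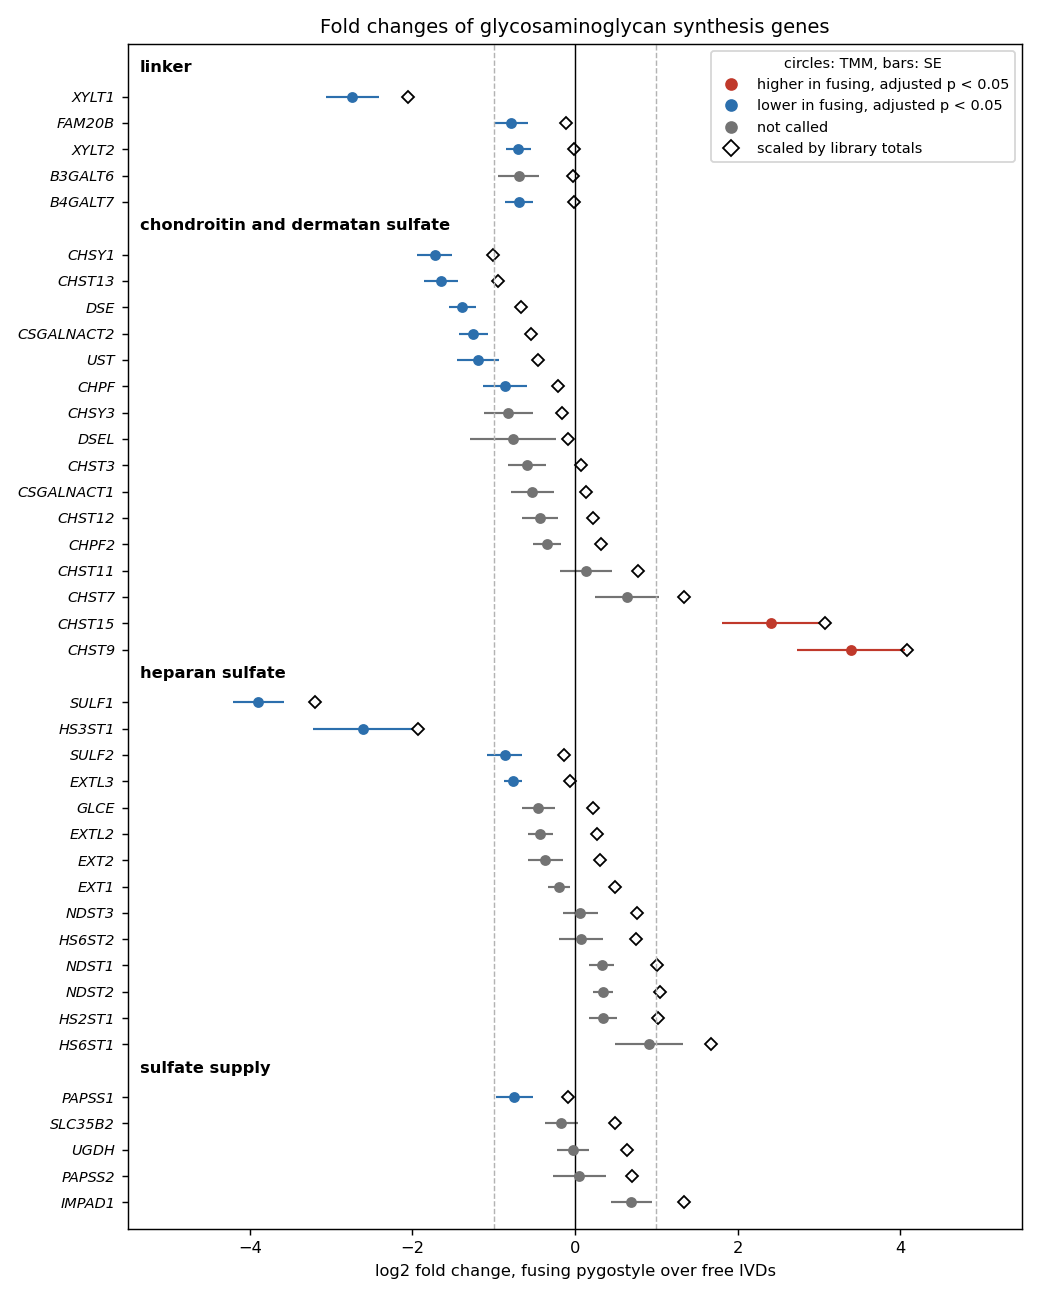
Log2 fold change (x axis, fusing over free IVDs) of each of the 40 tested genes, by class. Circles are fold changes with TMM factors and bars their standard errors (4 libraries per tissue). Red circles are called higher, blue circles called lower and grey circles not called at an adjusted p of 0.05. Diamonds are the fold changes with libraries scaled by their totals, which lie to the right of the circles throughout and above 0 for 22 of the 40 genes. *SULF1*, *XYLT1* and *HS3ST1* lie furthest to the left on both scalings, and *CHST9* and *CHST15* furthest to the right.

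Library totals ranged between 5682402 and 18434459 counts in fusing and between 12356953 and 18417470 counts in free IVDs. *COL2A1*, *COL1A1* and *COL1A2* together took 8.41 to 13.0% of the counts in fusing libraries and 22.7 to 34.4% in free libraries. Fusing replicate 3 was the highest fusing library for 25 of the 40 members, and fusing replicate 2, the shallowest library, was the lowest for 20. The 10 chondrocyte markers summed to 169960 CPM (counts per 1000000 counts of the library, scaled with TMM factors) in fusing replicate 3, to 61268 to 103326 CPM in the other fusing libraries and to 166612 to 252484 CPM in free libraries. Of these 10, 4 were lower (0 to 4 when 1 library was left out, and 1 when scaled by library totals or with the sample code as a block), 1 was higher (4 when scaled by library totals and 0 with that block) and the others were not called. Of 7 markers of annulus and tendon, 5 were lower and 1 higher, with sums of 30746 to 46196 CPM in fusing and 114375 to 325555 CPM in free libraries. Of 7 markers of osteoblasts and osteocytes, 6 were higher, with sums of 1734 to 2355 CPM in fusing and 17.4 to 425 CPM in free libraries. The osteoclast list had 3 of 5 higher and 1 lower (sums 1609 to 2008 CPM in fusing, 306 to 597 CPM in free), and the heterophil list had 5 of 5 higher (321 to 1534 CPM in fusing, 24.8 to 139 CPM in free). All 6 macrophage markers were higher (190 to 342 CPM in fusing, 20.9 to 50.2 CPM in free), and so were all 4 markers of leukocytes in general (261 to 632 CPM in fusing, 23.3 to 57.4 CPM in free). Markers of endothelium (6 genes), erythroid cells (3) and skeletal muscle (5) held no called gene by edgeR, and 1, 2 and 0 of them had an unadjusted p under 0.05. Scaled by library totals, 1 endothelial and 3 erythroid genes were called higher, with the sample code as a block 1 endothelial gene was, and with the replicate number as a block or by DESeq2 2 erythroid genes were. The skeletal muscle list summed to 934 CPM in fusing replicate 4, to 7.50 to 14.0 CPM in the other fusing libraries and to 24.2 to 561 CPM in free libraries, and 4 of its genes were lower without fusing replicate 4. *NOTO*, *SHH*, *KRT8* and *KRT18* of the notochord list did not pass the filter in these discs, and *TBXT* was not found under that symbol. *CD24*, the only gene of the 6 in that list that was tested, cannot stand for the list. It had 79.1, 24.6, 51.1 and 67.6 CPM in fusing libraries and 16, 0.36, 31.1 and 16.2 CPM in free libraries (log2 1.81 ± 0.77, adjusted p = 0.0931). It was called higher with the replicate number (adjusted p = 0.0312) or the sample code (adjusted p = 0.0445) as a block and when scaled by library totals (adjusted p = 0.0208). The part of these cell types in the results below was not tested. In bulk libraries, fewer cells of a type and less RNA per cell cannot be told apart.

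Of the 5 linker genes, 4 were lower in fusing IVDs (80%) and none was higher, beside 19.6% of all genes each way. The median log2 fold change was −0.70 (−0.027 when scaled by library totals, with *XYLT1* alone called). Under that scaling the median of all genes was 0.70, with 7.12% called lower and 60.3% higher. At an unadjusted p under 0.05, edgeR had 5 of them lower and none higher. Over all 13639 genes 3264 were lower and 3321 higher at that limit. DESeq2 called 5 lower and none higher, beside 17.2% and 18.5% of all genes.

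*XYLT1*, the xylosyltransferase that starts the linker, had the largest change of the class (chromosome 14, 8324402 to 8566284 on the plus strand in GRCg6a). Its level was 565, 305, 759 and 385 CPM in fusing libraries, against 3675, 4113, 2549 and 3121 CPM in free libraries. The highest fusing library was far below the lowest free library. The log2 fold change was −2.74 ± 0.32 (SE, adjusted p = 0.000317), or 6.68-fold lower. In free IVDs *XYLT1* was the 31st of 13639 tested genes by CPM and the 176th by CPM per kilobase of exon (323 ± 65.1, SD, n = 4). In fusing IVDs it stood at 48.3 ± 19.4 CPM per kilobase, the 793rd level.

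*XYLT2*, the second xylosyltransferase, had 32.4, 38.2, 50.8 and 35.4 CPM in fusing libraries and 56.7, 72.0, 63.0 and 63.1 CPM in free libraries. It was 1.63-fold lower (log2 −0.70 ± 0.15, adjusted p = 0.00606), with no overlap between tissues after TMM scaling. Scaled by library totals it was not called (log2 −0.012, adjusted p = 0.944). Its exons overlap those of *CD300LG*, and since reads were counted without strand its counts are less certain. The log2 ratio of *XYLT1* to *XYLT2* counts within a library, which needs no scaling between libraries, was 3.62 ± 0.50 in fusing and 5.70 ± 0.29 in free IVDs (SD, n = 4 each). The difference of −2.09 had an exact two-sided permutation p of 0.0286, the smallest that 4 against 4 libraries allow, and 0.0381 after adjustment over the 8 gene pairs tested. The pairs were chosen with earlier results known, and most hold a gene that was called. The adjustment does not cover that choice.

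*B4GALT7*, which adds the first galactose, had 27.5, 22.9, 35.5 and 41.5 CPM in fusing libraries and 52.0, 53.3, 46.8 and 54.4 CPM in free libraries (log2 −0.69 ± 0.18, adjusted p = 0.0130). *FAM20B*, the kinase that phosphorylates the xylose, had 48.5, 39.9, 82.3 and 53.5 CPM in fusing libraries and 109, 102, 82.3 and 94.2 CPM in free libraries (log2 −0.79 ± 0.21, adjusted p = 0.0165). Fusing replicate 3 and free replicate 3 were nearly level for this gene. *B3GALT6*, which adds the second galactose, was not called, at 28.5 ± 11.5 CPM in fusing and 46.2 ± 6.01 CPM in free IVDs (log2 −0.69 ± 0.25, adjusted p = 0.0514). It was called with the replicate number as a block (log2 −0.76, adjusted p = 0.0304), but not with the sample code (adjusted p = 0.0547), and without fusing replicate 3 (log2 −1.02, adjusted p = 0.00228), in which it had 45.0 CPM.

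**Figure D2:**
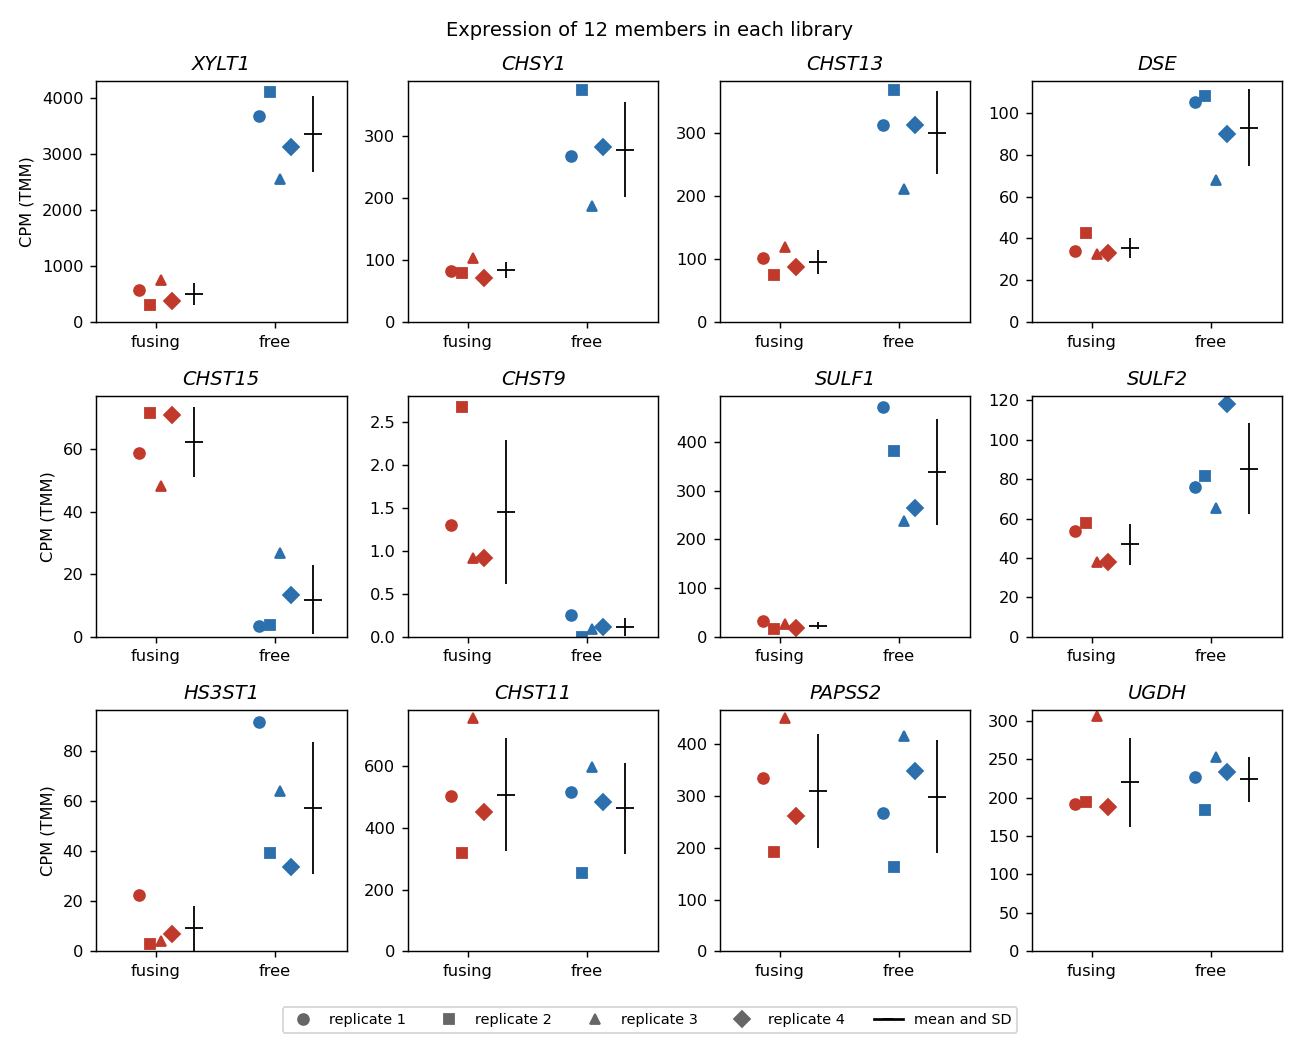
Level in CPM (y axis, linear from 0, TMM-scaled) of 12 members in each library, with fusing IVDs in red on the left and free IVDs in blue on the right of each panel. Symbols mark the replicate number, and the black bars the mean and SD of 4 libraries. *XYLT1* lies at 305 to 759 CPM in fusing and 2549 to 4113 CPM in free libraries, and *SULF1* at 16.8 to 32.1 CPM in fusing and 237 to 472 CPM in free libraries. *CHST15* lies at 48.2 to 71.7 CPM in fusing and 3.36 to 27.0 CPM in free libraries, while the libraries of *CHST11*, *PAPSS2* and *UGDH* overlap.

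Of the 16 genes of chondroitin and dermatan sulfate, 6 were lower, 2 higher and 8 not called in fusing IVDs. These shares were 37.5% lower and 12.5% higher, beside 19.6% of all genes each way. The median log2 fold change was −0.68, and −0.0061 when scaled by library totals, with 4 called lower and 3 higher. Under that scaling the median of all genes was 0.70, with 7.12% called lower and 60.3% higher. Over a 2-fold change, 5 were lower and 2 higher, beside 9.64% and 13.2% of all genes. With the replicate number as a block 10 were called lower (all genes 19.7%), and without fusing replicate 3 also 10 (all genes 20.3%).

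Among the genes that start and lengthen the chain, *CHSY1*, a subunit of the chondroitin polymerase, changed most (chromosome 10, 17983037 to 18051978, minus strand). It had 82.0, 79.5, 103 and 71.4 CPM in fusing libraries and 269, 374, 188 and 283 CPM in free libraries. It was 3.31-fold lower (log2 −1.73 ± 0.22, adjusted p = 0.000412), and no fusing library reached a free one. Its exons overlap those of *SELENOS*, so its counts are less certain. *CSGALNACT2*, one of the enzymes that add the first N-acetylgalactosamine, had 43.9, 31.7, 37.1 and 29.0 CPM in fusing libraries and 90.1, 92.5, 60.9 and 94.1 CPM in free libraries (log2 −1.25 ± 0.18, adjusted p = 0.000801). Its paralog *CSGALNACT1* was more abundant in both tissues per length of exon (31.1 ± 10.6 CPM per kilobase in fusing and 44.8 ± 10.7 in free IVDs, against 8.97 ± 1.67 in fusing and 21.4 ± 3.99 in free IVDs for *CSGALNACT2*). Its difference was −0.53 ± 0.26 (log2, adjusted p = 0.145), with 172, 113, 260 and 171 CPM in fusing libraries and 218, 195, 323 and 296 CPM in free libraries. Libraries of the tissues overlapped, and the gene was called with the replicate number as a block (log2 −0.56, adjusted p = 0.0278) or without fusing replicate 3 (log2 −0.78, adjusted p = 0.0326). With the sample code as a block it was not (log2 −0.24, adjusted p = 0.533). Its exons overlap *SH2D4A*.

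*CHPF*, a partner subunit of the polymerase, was lower in fusing IVDs, with 59.9, 46.1, 107 and 69.9 CPM, against 118, 91.9, 145 and 161 CPM in free IVDs (log2 −0.86 ± 0.27, adjusted p = 0.0304). The highest fusing library exceeded the lowest free library. This call was lost without any one of 5 libraries (fusing replicates 1, 2 and 4, free replicates 3 and 4), with adjusted p up to 0.0819, and with the sample code as a block (adjusted p = 0.166). *CHSY3*, a second polymerase subunit, had 37.2, 35.5, 85.8 and 43.3 CPM in fusing libraries and 69.0, 76.8, 91.8 and 120 CPM in free libraries (log2 −0.82 ± 0.30, adjusted p = 0.0558). It was called without fusing replicate 3 (log2 −1.22, adjusted p = 0.00213), by DESeq2 (adjusted p = 0.0309) and with the replicate number as a block (log2 −0.89, adjusted p = 0.0233). With the sample code as a block it was not (log2 −0.74, adjusted p = 0.148). *CHPF2* was at 101 ± 23.4 CPM in fusing and 128 ± 10.8 CPM in free IVDs (log2 −0.35 ± 0.17, adjusted p = 0.133), and was called without fusing replicate 3 (log2 −0.52, adjusted p = 0.0218).

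The sulfotransferases of chondroitin differed in direction. *CHST11*, *CHST12* and *CHST13* add sulfate to position 4 of N-acetylgalactosamine. *CHST11* was the most abundant of the class per length of exon in both tissues (90.4 ± 32.7 CPM per kilobase in fusing and 82.6 ± 26.2 in free IVDs). It had 505, 317, 756 and 452 CPM in fusing libraries and 517, 254, 597 and 485 CPM in free libraries, and a log2 difference of 0.13 ± 0.32 (adjusted p = 0.776). *CHST13* was 3.14-fold lower in fusing IVDs, with 102, 74.1, 119 and 88.3 CPM, against 313, 368, 211 and 313 CPM in free IVDs (log2 −1.65 ± 0.21, adjusted p = 0.000434; chromosome 12, 10859226 to 10883423, plus strand). In free IVDs it was the next after *CHST11* in mean level per kilobase (68.0 ± 14.8), within the spread between libraries, and in fusing IVDs it stood at 21.6 ± 4.33. *CHST12* had 54.4 ± 15 CPM in fusing and 73.5 ± 16.9 CPM in free IVDs (log2 −0.43 ± 0.23, adjusted p = 0.159), and was called with the replicate number as a block (log2 −0.45, adjusted p = 0.0161), but not with the sample code (log2 −0.13, adjusted p = 0.642).

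*CHST3*, the main chondroitin 6-O-sulfotransferase of cartilage, had 159, 95, 221 and 136 CPM in fusing libraries and 213, 216, 248 and 247 CPM in free libraries. The difference of −0.60 ± 0.23 (log2) was not called (adjusted p = 0.0691), but was with the replicate number as a block (log2 −0.66, adjusted p = 0.0392) and without fusing replicate 3 (log2 −0.84, adjusted p = 0.00942). With the sample code as a block it was not called (log2 −0.42, adjusted p = 0.200), and by DESeq2 it was (adjusted p = 0.0473). The ratio of *CHST3* to *CHST11* within a library was lower in fusing IVDs, at −1.73 ± 0.042 (log2) in fusing and −0.94 ± 0.49 in free IVDs (difference −0.79, exact permutation p = 0.0286, adjusted 0.0381). Fusing libraries lay between −1.77 and −1.67, and free libraries between −1.28 and −0.24. *CHST7*, a second 6-O-sulfotransferase, was near 2 CPM in both tissues (2.36 ± 0.60 in fusing and 1.53 ± 0.76 in free IVDs, adjusted p = 0.234).

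*CHST15*, which adds a 6-sulfate to 4-sulfated N-acetylgalactosamine and so makes the disulfated chondroitin sulfate E unit, was higher in fusing IVDs (chromosome 6, 32816682 to 32859776, minus strand). It had 58.8, 71.7, 48.2 and 70.9 CPM in fusing libraries and 3.36, 3.71, 27.0 and 13.4 CPM in free libraries. Every fusing library was above every free library, and free replicates 3 and 4 stood above free replicates 1 and 2. It was 5.29-fold higher (log2 2.40 ± 0.60, adjusted p = 0.0111), and the log2 fold change was 3.22 without free replicate 3. The hypertrophic chondrocyte marker *COL10A1* had 17839, 8861, 23692 and 17200 CPM in fusing libraries and 1613, 47.3, 7558 and 1638 CPM in free libraries. For that list as a whole, 1 of 4 genes was called higher (4 with the replicate number as a block, and 0 to 4 when 1 library was left out) and all 4 had every fusing library above every free one, with sums of 9071 to 24170 CPM in fusing and 50.5 to 7724 CPM in free libraries. Within fusing libraries *CHST15* was highest in replicate 2, where *COL10A1* was lowest, and lowest in replicate 3, where *COL10A1* was highest. In free libraries both were highest in replicate 3, as was the osteoblast and osteocyte list (425 CPM). The heterophil list was lowest in fusing replicate 3 (321 CPM, others 1207 to 1534 CPM), and in free replicates 3 (24.8 CPM) and 4 (24.9 CPM). The macrophage list was highest in fusing replicate 2 (342 CPM) and free replicate 3 (50.2 CPM), and lowest in fusing replicate 3 (190 CPM). The general leukocyte list had the same extremes (632, 57.4 and 261 CPM), but was lowest of the free libraries in replicate 4 (23.3 CPM). The osteoclast list was highest in free replicate 3 (597 CPM), but lowest of the fusing libraries in replicate 2 (1609 CPM). The endothelial list summed to 199, 182, 176 and 204 CPM in fusing libraries and to 81.9, 79.8, 371 and 320 CPM in free libraries. The part of these cell types in the *CHST15* result was not tested. The log2 ratio of *CHST15* to *CHST11* was −2.97 ± 0.77 in fusing and −5.74 ± 1.2 in free IVDs (difference 2.77, exact permutation p = 0.0286, adjusted 0.0381).

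*CHST9*, a 4-O-sulfotransferase whose mammalian form acts mainly on sugars other than chondroitin, was higher in fusing IVDs but rested on few counts. Fusing libraries had 24, 21, 12 and 21 counts and free libraries 4, 0, 1 and 1. The sums of 78 counts in fusing and 6 in free libraries gave a depth-scaled ratio of 9.84 (95% interval 4.32 to 27.6, counting error only), and edgeR gave a log2 fold change of 3.40 ± 0.67 (adjusted p = 0.00356), and of 4.26 without free replicate 1. No free library reached the minimum count of 10, so the gene passed the filter through its fusing libraries alone. A gene as low in both tissues would not have been tested.

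Dermatan sulfate is chondroitin sulfate with part of its glucuronic acid turned into iduronic acid. *DSE*, the main epimerase, had 33.8, 42.7, 32.7 and 33.1 CPM in fusing libraries and 105, 108, 68.0 and 89.8 CPM in free libraries. It was 2.61-fold lower (log2 −1.39 ± 0.17, adjusted p = 0.000350), without overlap. *UST*, the 2-O-sulfotransferase that acts on the uronic acid, had 48.8, 46.9, 41.6 and 35.2 CPM in fusing libraries and 90.2, 156, 63.0 and 85.6 CPM in free libraries. It was 2.29-fold lower (adjusted p = 0.00572), with free replicate 2 the highest. The second epimerase, *DSEL*, was at 2.26 ± 0.67 CPM in fusing and 3.90 ± 2.75 CPM in free IVDs (adjusted p = 0.282).

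**Figure D3:**
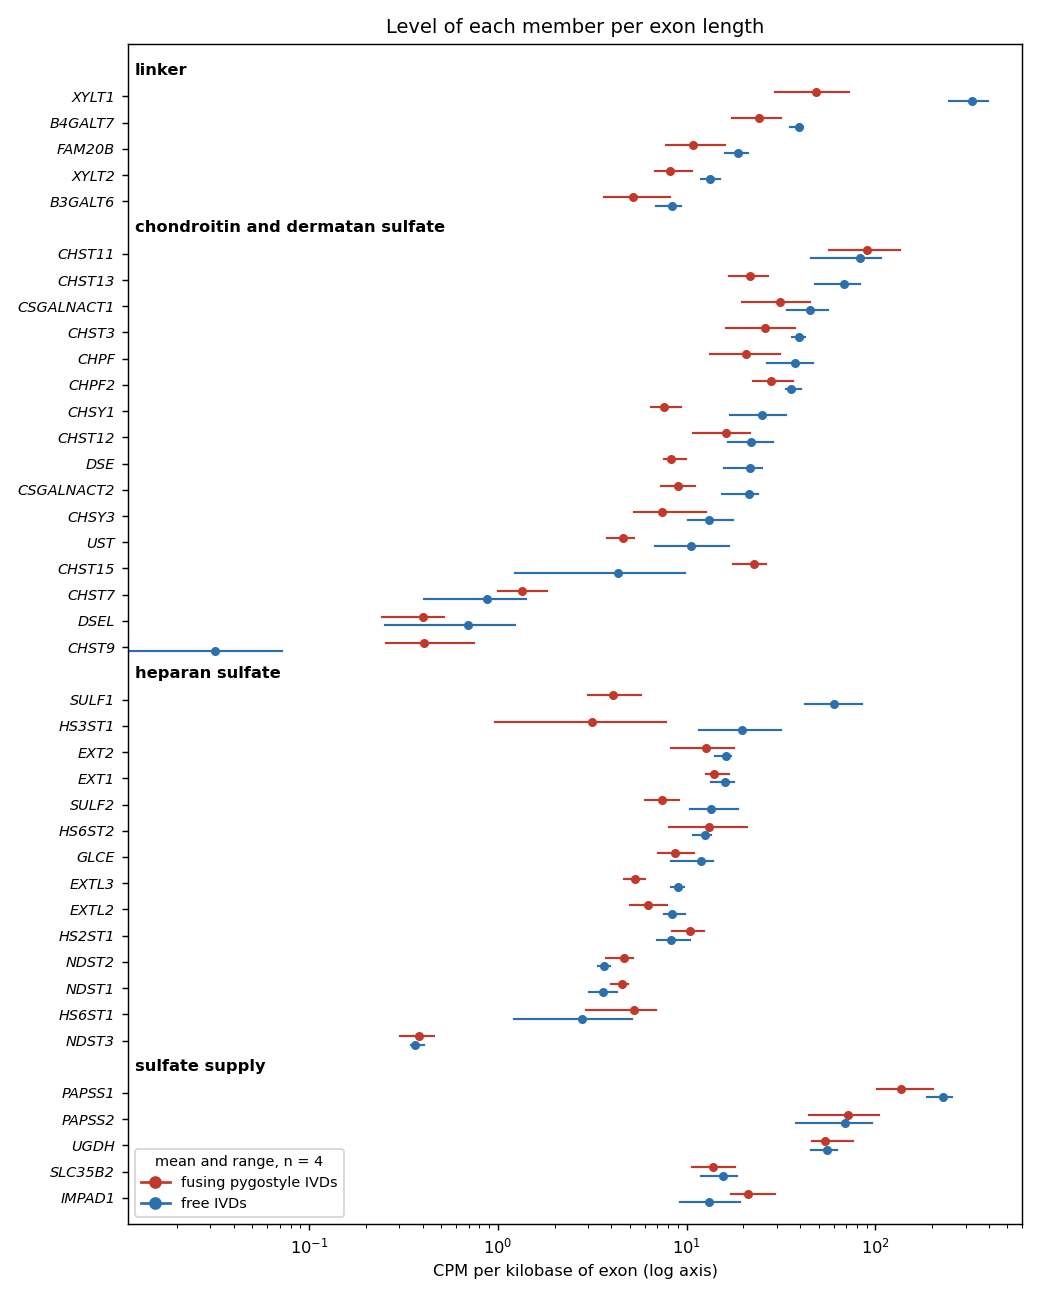
Level of each tested gene in CPM per kilobase of exon (x axis, log scale), with fusing IVDs in red above free IVDs in blue. Points are means of 4 libraries and lines run over their lowest and highest library. *XYLT1* in free IVDs (323 CPM per kilobase) is the highest level of the plot, followed by *PAPSS1*, and *CHST9* and *NDST3* are the lowest in free IVDs. The line of *CHST9* in free IVDs runs off the axis because 1 library is at 0.

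Of the 14 tested genes of heparan sulfate, 4 were lower in fusing IVDs (28.6%, beside 19.6% of all genes), none was higher and 10 were not called. At an unadjusted p under 0.05, 5 were lower and 1 higher, and DESeq2 called 4 lower and none higher. The median log2 fold change was −0.28, and 0.40 when scaled by library totals, with 2 called lower and 7 higher. Under that scaling the median of all genes was 0.70, and 60.3% of all genes were called higher. With the replicate number as a block, 6 were called lower and 1 higher.

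Both extracellular sulfatases, which remove 6-O-sulfate from finished heparan sulfate chains, were lower in fusing IVDs. *SULF1* had the largest change of all 40 genes (chromosome 2, 116229305 to 116354852, plus strand). Fusing libraries had 32.1, 16.8, 25.1 and 16.9 CPM, against 472, 381, 237 and 264 CPM in free libraries. Every free library was far above every fusing library, and the log2 fold change was −3.89 ± 0.31 (14.9-fold lower, adjusted p = 8.19e-05). *SULF2* had 53.9, 57.7, 38.1 and 38.1 CPM in fusing libraries and 76.0, 81.8, 65.5 and 118 CPM in free libraries (log2 −0.86 ± 0.22, adjusted p = 0.0114). Its exons overlap those of *NCOA3*, so its counts are less certain. The log2 ratio of *SULF1* to *SULF2* was −1.07 ± 0.53 in fusing and 1.97 ± 0.63 in free IVDs, a difference of −3.04 (exact permutation p = 0.0286, adjusted 0.0381). Per kilobase of exon, *SULF1* lay below *SULF2* in all 4 fusing libraries and above it in all 4 free libraries. *SULF1* stood at 4.07 ± 1.32 CPM per kilobase in fusing and 60.6 ± 19.5 in free IVDs, and *SULF2* at 7.43 ± 1.63 in fusing and 13.5 ± 3.64 in free IVDs.

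*HS3ST1*, the 3-O-sulfotransferase that completes the antithrombin-binding site, was the other heparan sulfate gene with a change over 2-fold (chromosome 4, 78033667 to 78044779, plus strand). It had 22.5, 2.80, 4.26 and 6.93 CPM in fusing libraries and 91.6, 39.4, 64.1 and 33.6 CPM in free libraries. The libraries did not overlap, though replicate 1 was the highest in both tissues. It was 6.12-fold lower (log2 −2.61 ± 0.61, adjusted p = 0.00874), and the log2 fold change was −3.58 without fusing replicate 1. The 6-O-sulfotransferases showed no call. *HS6ST1* had 9.28, 11.5, 4.87 and 9.47 CPM in fusing libraries and 4.14, 8.59, 2.03 and 3.86 CPM in free libraries (log2 0.91 ± 0.42, adjusted p = 0.117). It was called higher with the replicate number as a block (log2 1.02, adjusted p = 0.0145) and without free replicate 2 (log2 1.37, adjusted p = 0.0198), but not with the sample code as a block (log2 0.56, adjusted p = 0.419). *HS6ST2* had 22.1, 13.1, 33.9 and 15.7 CPM in fusing libraries and 20.1, 21.8, 17.4 and 21.5 CPM in free libraries (log2 0.073 ± 0.27, adjusted p = 0.856). The log2 ratio of *HS6ST2* to *HS6ST1* was 1.24 ± 1.12 in fusing and 2.28 ± 0.72 in free IVDs, and the difference of −1.05 was not past the threshold (exact permutation p = 0.171, adjusted 0.196). It was lower in the fusing library of all 4 same-numbered pairs, for which the exact paired p was 0.125, the smallest that 4 pairs allow. Paired by the sample code it was not lower throughout, with 2.79 in fusing replicate 3 and 1.34 in free replicate 2.

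Chain start and polymerization of heparan sulfate changed less in size. *EXTL3*, which adds the first N-acetylglucosamine, had 34.7, 30.4, 39.4 and 34.1 CPM in fusing libraries and 56.1, 63.6, 53.8 and 61.8 CPM in free libraries. It was 1.70-fold lower (log2 −0.76 ± 0.11, adjusted p = 0.000869), with no overlap and a narrow spread in both tissues after TMM scaling. Scaled by library totals it was not called (log2 −0.069, adjusted p = 0.597). The polymerase subunits *EXT1* and *EXT2* were not called. *EXT1* had 36.1, 34.9, 46.3 and 36.8 CPM in fusing libraries and 37.3, 49.3, 42.3 and 48.4 CPM in free libraries (log2 −0.20 ± 0.14, adjusted p = 0.272), and scaled by library totals it was called higher (log2 0.49, adjusted p = 0.00511). *EXT2* had 35.8 ± 11.5 CPM in fusing and 46.1 ± 4.08 CPM in free IVDs (log2 −0.37 ± 0.21, adjusted p = 0.201), and was called lower without fusing replicate 3 (log2 −0.59, adjusted p = 0.0295). *EXTL2*, which can cap the linker, was at 22.7 ± 4.28 CPM in fusing and 30.5 ± 3.68 CPM in free IVDs (log2 −0.43 ± 0.16, adjusted p = 0.0541), and was called with the replicate number as a block (log2 −0.44, adjusted p = 0.0481) or without fusing replicate 3 (log2 −0.57, adjusted p = 0.0144), but not with the sample code as a block (adjusted p = 0.0677).

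A single polymerase subunit of each chain was also compared within libraries. The log2 ratio of *CHSY1* to *EXT1* counts was 1.12 ± 0.11 in fusing and 2.62 ± 0.35 in free IVDs, a difference of −1.5 (exact permutation p = 0.0286, adjusted 0.0381). *CHSY1* was the chondroitin subunit that changed most, so this ratio does not stand for the polymerases as a whole. The log2 fold changes were −0.86 for *CHPF*, −0.82 for *CHSY3* and −0.35 for *CHPF2*, against −0.37 for *EXT2* and −0.20 for *EXT1*. At the step that commits the linker to either chain, the ratio of *CSGALNACT1* to *EXTL3* was 2.31 ± 0.34 in fusing and 2.10 ± 0.42 in free IVDs. That difference of 0.21 was not past the threshold (exact permutation p = 0.429, adjusted 0.429), though the fusing library was the higher of all 4 same-numbered pairs (exact paired p = 0.125). It holds for *CSGALNACT1* only. No ratio was tested for *CSGALNACT2*, also an enzyme of this step. The log2 fold change was −1.25 for *CSGALNACT2*, −0.53 for *CSGALNACT1* and −0.76 for *EXTL3*.

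**Figure D4:**
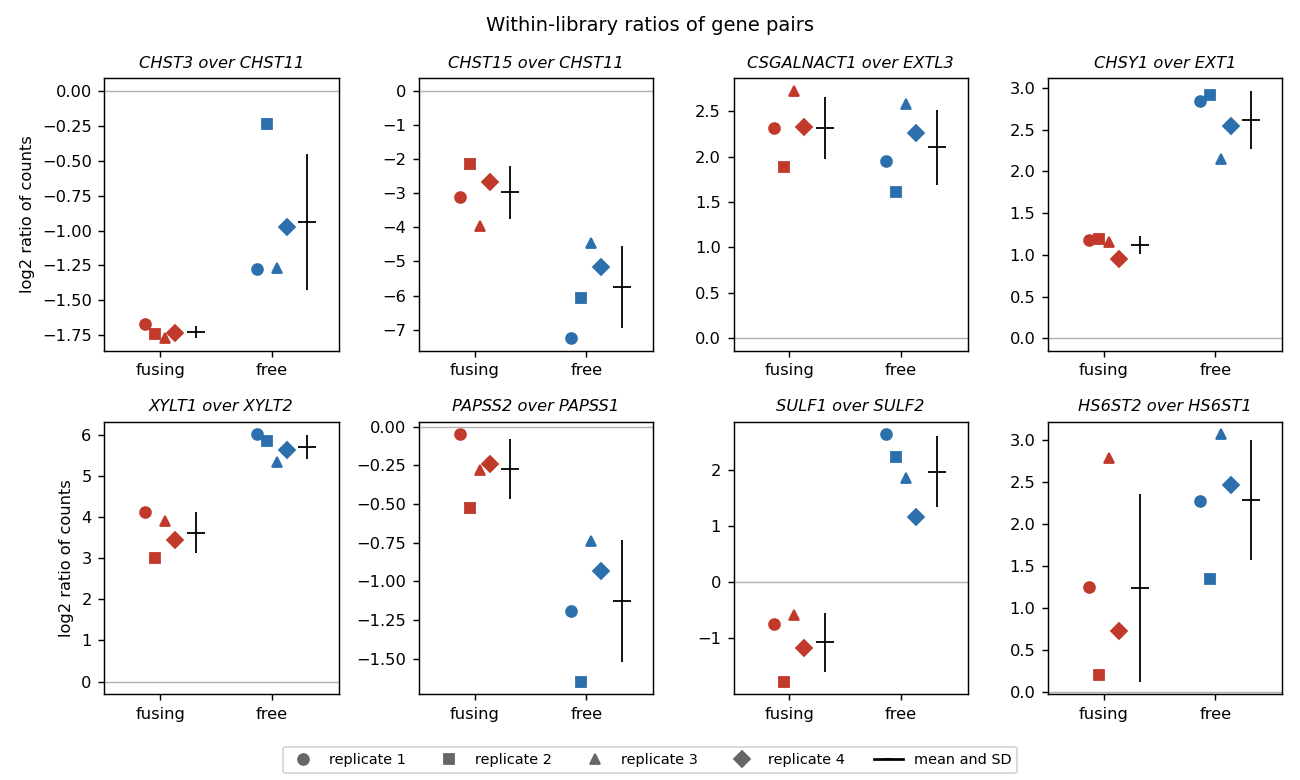
Log2 ratio of the counts of 8 gene pairs within each library (y axis, 0.5 added to each count), with fusing IVDs in red on the left and free IVDs in blue on the right of each panel. Symbols mark the replicate number and bars the mean and SD of 4 libraries. Fusing and free libraries do not overlap for 6 pairs, and they overlap for *CSGALNACT1* over *EXTL3* and *HS6ST2* over *HS6ST1*. *SULF1* over *SULF2* crosses 0, with means of −1.07 in fusing and 1.97 in free IVDs.

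Of the enzymes that modify the growing heparan sulfate chain, *NDST1*, *NDST2* and *NDST3* replace acetyl groups with sulfate. *NDST1* had 18.5, 21.1, 21.7 and 22.6 CPM in fusing libraries and 14.3, 14.0, 19.8 and 18.8 CPM in free libraries (log2 0.33 ± 0.15, adjusted p = 0.118). *NDST2* had 29.9 ± 4.21 CPM in fusing and 23.5 ± 1.41 CPM in free IVDs (log2 0.34 ± 0.13, adjusted p = 0.0590), and was called higher without fusing replicate 4 (log2 0.43, adjusted p = 0.0143). Its exons overlap *ZSWIM8*. *NDST3* was low in both tissues, at 4.66 ± 1.04 CPM in fusing and 4.44 ± 0.36 CPM in free IVDs (adjusted p = 0.843), and its exons overlap *PRSS12*. For *NDST4*, the 20 counts in fusing and 17 in free libraries gave a depth-scaled ratio of 0.890 (95% interval 0.443 to 1.81), so a difference was not detectable at this depth. *GLCE*, the epimerase, had 49.2 ± 10.9 CPM in fusing and 67.4 ± 14.3 CPM in free IVDs (log2 −0.45 ± 0.20, adjusted p = 0.106). It was called lower with the replicate number as a block (log2 −0.45, adjusted p = 0.0458) and without free replicate 2 (log2 −0.60, adjusted p = 0.0293), but not with the sample code as a block (log2 −0.29, adjusted p = 0.454). *HS2ST1*, the 2-O-sulfotransferase, had 24.3 ± 3.88 CPM in fusing and 19.1 ± 3.53 CPM in free IVDs (log2 0.34 ± 0.17, adjusted p = 0.138), and reached an adjusted p of 0.0493 without free replicate 3 (log2 0.47).

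Of the 5 genes of sulfate and sugar supply, 1 was lower (20%, beside 19.6% of all genes) and none higher. The median log2 fold change was −0.026. The median was 0.64 when scaled by library totals, with 2 called higher, and that of all genes was then 0.70. At an unadjusted p under 0.05, 1 was lower and 1 higher, and DESeq2 called 1 lower and 1 higher. *PAPSS1* and *PAPSS2* make PAPS, the sulfate donor of all these sulfotransferases. *PAPSS1* had 346, 277, 548 and 309 CPM in fusing libraries and 611, 511, 693 and 668 CPM in free libraries (log2 −0.75 ± 0.23, adjusted p = 0.0290). Fusing replicate 3 lay above the lowest free library, and the call was lost without any one of 6 libraries (all but fusing replicate 3 and free replicate 2), with adjusted p between 0.0561 and 0.0743, and with the sample code as a block (adjusted p = 0.171). *PAPSS2* had 335, 192, 452 and 261 CPM in fusing libraries and 268, 163, 416 and 349 CPM in free libraries (log2 0.052 ± 0.33, adjusted p = 0.918). Its exons overlap those of *ATAD1*. Within libraries the log2 ratio of *PAPSS2* to *PAPSS1* was −0.27 ± 0.20 in fusing and −1.13 ± 0.39 in free IVDs, a difference of 0.85 without overlap (exact permutation p = 0.0286, adjusted 0.0381). Per kilobase of exon, *PAPSS1* stood at 136 ± 44.9 CPM in fusing and 228 ± 29.7 CPM in free IVDs.

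*IMPAD1*, the Golgi phosphatase that clears the by-product of sulfation, had 133, 120, 204 and 134 CPM in fusing libraries and 81.7, 64.2, 133 and 86.9 CPM in free libraries. The difference of 0.69 ± 0.25 (log2, adjusted p = 0.0520) was called higher with the replicate number (adjusted p = 0.00514) or the sample code (adjusted p = 0.0358) as a block, by DESeq2 (adjusted p = 0.0288) and without free replicate 3 (log2 0.92, adjusted p = 0.0106). *UGDH*, which makes UDP-glucuronic acid, had 192, 194, 306 and 187 CPM in fusing libraries and 226, 184, 253 and 233 CPM in free libraries (log2 −0.026 ± 0.19, adjusted p = 0.931). Scaled by library totals it was called higher (log2 0.64, adjusted p = 0.0177). *SLC35B2*, which carries PAPS into the Golgi, had 47.6 ± 11.1 CPM in fusing and 53.6 ± 11.3 CPM in free IVDs (adjusted p = 0.539).

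The genes around these enzymes were read from lists of the same pathway and related genes. The list of other synthesis and supply also holds the sulfotransferases *TPST1*, *TPST2* and *CHST10*, which are not taken here to build glycosaminoglycans. *TPST1* was called lower (log2 −1.38, adjusted p = 0.00119), and *TPST2* and *CHST10* were not called. Of the 23 tested genes of that list, 14 were lower and 1 higher in fusing IVDs (median log2 −0.72). These shares were 60.9% and 4.35%, beside 19.6% of all genes each way. Scaled by library totals, 5 were lower and 7 higher (median log2 −0.050). Under that scaling 7.12% of all genes were called lower and 60.3% higher, with a median of 0.70. With TMM factors, leaving out 1 library gave 10 to 15 lower, and the sample code as a block gave 11. *PXYLP1*, the phosphatase that removes the phosphate set by *FAM20B*, was at 183 ± 56.1 CPM in fusing and 782 ± 159 CPM in free IVDs (log2 −2.10 ± 0.25, adjusted p = 0.000343). *SLC35B3*, a second PAPS carrier, was at 19.2 ± 3.09 CPM in fusing and 54.1 ± 11.4 CPM in free IVDs (log2 −1.49 ± 0.18, adjusted p = 0.000343). The enzymes that make UDP-N-acetylglucosamine were lower as well, with *GFPT1* at −1.31 ± 0.22, *UAP1* at −1.38 ± 0.26, *GFPT2* at −1.0 ± 0.26, *GNPNAT1* at −0.72 ± 0.20 and *PGM3* at −0.46 ± 0.15 on the log2 scale. The call of *GNPNAT1* was lost without fusing replicate 4 (adjusted p = 0.0506), and that of *PGM3* without any one of fusing replicates 1, 2 and 4 and free replicates 2 and 3 (up to 0.0788). Scaled by library totals *GFPT1* and *UAP1* were still called lower, *GFPT2* (log2 −0.33, adjusted p = 0.208) and *GNPNAT1* (log2 −0.050, adjusted p = 0.819) were not, and the sign of *PGM3* turned (log2 0.23, adjusted p = 0.215). *UXS1*, which makes the UDP-xylose used by *XYLT1* and *XYLT2*, was at −0.94 ± 0.13 (adjusted p = 0.000738). *CHST14*, the 4-O-sulfotransferase of dermatan sulfate, was at −0.85 ± 0.16 (adjusted p = 0.00317). The gene that was higher, the sulfate transporter *SLC26A1*, was low in both tissues (4.99 ± 6.34 CPM in fusing and 0.385 ± 0.275 CPM in free IVDs, log2 3.70 ± 0.98, adjusted p = 0.0148), and its log2 fold change was 2.26 without fusing replicate 4 and 4.30 without free replicate 3.

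Keratan sulfate, the third sulfated chain of cartilage, had 6 of 7 tested genes lower in fusing IVDs and 1 higher (median log2 −1.10). These shares were 85.7% and 14.3%, beside 19.6% of all genes each way. Scaled by library totals, 3 were lower and 1 higher (all genes 7.12% and 60.3%). The call of *B4GALT1* (adjusted p = 0.0404) was lost without any one of the fusing replicates and without free replicate 2 or 4 (up to 0.101). *CHST1*, its galactose 6-O-sulfotransferase, was at 23.5 ± 8.59 CPM in fusing and 233 ± 44.1 CPM in free IVDs (log2 −3.31 ± 0.29, adjusted p = 9.42e-05). *B3GNT2*, which can lengthen the chain, was the gene that was higher (log2 0.85 ± 0.17, adjusted p = 0.00363). The genes of the breakdown list went both ways, with 5 of 20 higher and 4 lower (median log2 0.19), and 14 higher and 0 lower when scaled by library totals. The list also holds *HPSE2*, a relative of *HPSE* that is not taken here as an enzyme of breakdown. With TMM factors the shares of the list, 25% higher and 20% lower, were near the 19.6% of all genes called each way. Under library totals the median of the list was 0.86, beside 0.70 for all genes, of which 60.3% were called higher and 7.12% lower. *HPSE*, heparanase, was at 18.5 ± 15.5 CPM in fusing and 3.42 ± 0.996 CPM in free IVDs (log2 2.41 ± 0.53, adjusted p = 0.00643), and its log2 fold change was 1.66 without fusing replicate 2. *ARSB*, which removes the 4-sulfate of chondroitin and dermatan sulfate, was at 126 ± 21.1 CPM in fusing and 53.7 ± 15.3 CPM in free IVDs (log2 1.23 ± 0.22, adjusted p = 0.00220). *HEXA* and *HPSE2* were also higher, and *HGSNAT*, *NAGLU*, *GLB1* and *SUMF1* were lower by 0.33 to 0.74 on the log2 scale. The call of *NAGLU* was lost without fusing replicate 1 (adjusted p = 0.0506), that of *GLB1* without any one of fusing replicates 2 and 4 and free replicates 1 and 4 (up to 0.0813), and that of *SUMF1* under most settings, among them the replicate block (0.0806). Scaled by library totals none of the 4 was called lower, and *SUMF1* was called higher (log2 0.37, adjusted p = 0.0186).

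Of 24 tested core proteins that carry the chains, 8 were lower and 4 higher (median log2 −0.26), and 5 lower and 8 higher when scaled by library totals. With TMM factors 33.3% were lower and 16.7% higher, beside 19.6% of all genes in either direction. Under library totals 7.12% of all genes were called lower and 60.3% higher. *DCN*, *VCAN*, *HSPG2* and *SDC1* were among the 8, with log2 fold changes of −3.09 ± 0.30, −2.21 ± 0.35, −1.90 ± 0.31 and −0.81 ± 0.19. *SRGN*, serglycin, which carries chains in granules of blood cells, was at 124 ± 59.0 CPM in fusing and 10.8 ± 4.55 CPM in free IVDs (log2 3.51 ± 0.46, adjusted p = 0.000492). The heterophil, macrophage and leukocyte lists given above moved in the same direction, and their part in that result was not tested. *GPC3* was also higher (log2 3.84 ± 0.68, adjusted p = 0.00220, and 5.16 without free replicate 3). *ACAN*, aggrecan, the main bearer of chondroitin sulfate in cartilage, had 9035, 4820, 11966 and 6968 CPM in fusing libraries and 13533, 9747, 13300 and 11902 CPM in free libraries. Its difference of −0.56 ± 0.32 (log2) was not called (adjusted p = 0.190), with fusing replicate 3 above the lowest free library.

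**Figure D5:**
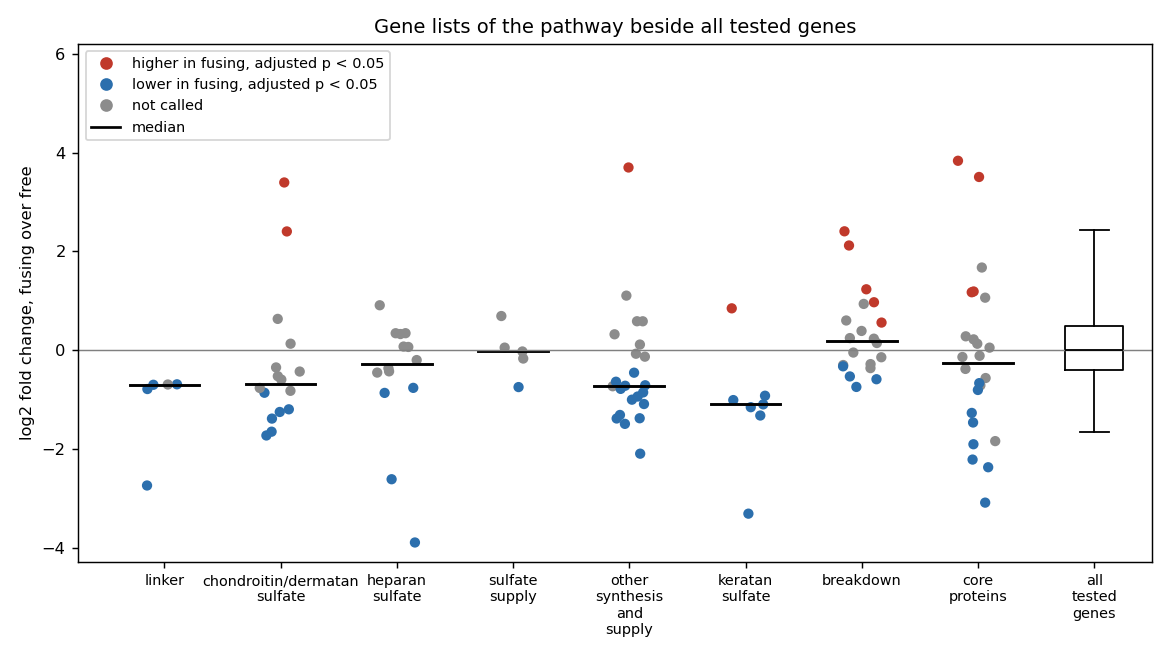
Log2 fold change (y axis, fusing over free IVDs, TMM factors) of the tested genes of the 4 classes and of 4 other lists of the pathway and related genes, beside all 13639 tested genes. Each point is a gene, red if called higher, blue if called lower and grey if not called, and black bars are medians. The box of all genes spans the quartiles with its median at 0.013, and its whiskers run from the 5th to the 95th percentile. The medians of the linker (−0.70) and chondroitin and dermatan sulfate (−0.68) classes lie below those of heparan sulfate (−0.28) and sulfate supply (−0.026). Scaling by library totals shifts the median of all genes by 0.69, and the medians of heparan sulfate and sulfate supply then lie above 0. Both remain below the median of all genes under that scaling (0.70).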

How the data were processed

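The authors isolated total RNA from dissected discs, captured polyA mRNA, made unstranded libraries and sequenced them. They aligned the reads to GRCg6a with STAR and counted them per gene with featureCounts, without reads that map to several places. What the authors deposited are raw counts of 24154 genes in 8 libraries, whole and not normalized. The exon length used for levels per kilobase stands beside the deposited counts. A second deposited table holds the authors' own DESeq2 comparison (log2 fold changes and p-values) and was not used. No column belonged to another sample.

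Libraries were grouped by the tissue in their titles. edgeR 4.0.16 (R 4.3.3) fitted a quasi-likelihood model over all 8 libraries with TMM factors and no further term. The filter (filterByExpr, minimum count 10, minimum total 15) kept 13639 genes, over which p-values were adjusted by the Benjamini-Hochberg method. The standard error was taken from the test statistic. Intervals are 95% exact intervals of counts and cover counting error only. Ratios of gene pairs were computed from counts with 0.5 added, and tested with an exact two-sided permutation test. The fit was tested on simulated data. Chi-square per degree of freedom between replicates was 34.9 to 181, so that no library repeats another.

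Every listed member found in the table is reported, with all libraries given for the members changed most, the ratio pairs and the branch points. Members, lists and tests were chosen with earlier results of these data known. Symbols were matched exactly, which found 80 of 84 names of the other pathway lists and 67 of 73 marker names. Exon overlaps were found with GenomicRanges 1.54.1, and chromosomes were named by symbols shared with the RefSeq table of GRCg7b while positions are those of the file.

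The titles number replicates 1 to 4 in both tissues. Deviations of same-numbered libraries from their tissue means correlated at 0.24, 0.16, 0.11 and 0.25 for replicates 1 to 4, and the numbers were tried as pairs. Libraries with different numbers were not compared in this way, so these correlations cannot show that the numbers mark pairs. The pairs at 0.24 and 0.25 also share a code in their titles. What the numbers mark is not given in the sources used here. Codes in the titles pair libraries otherwise only in part. They are shared by fusing replicate 1 and free replicate 1, by fusing replicate 3 and free replicate 2 and by fusing replicate 4 and free replicate 4, while fusing replicate 2 and free replicate 3 share none and so add nothing to that fit. The alternatives tried were RLE factors, library totals, no filter, a stricter filter (1 CPM in 4 libraries), DESeq2 1.42.0, the replicate number or the sample code as a block, a pseudocount of 1 and leaving out each library.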

Additional observations from a re-analysis of the deposited data

Results flagged for a closer look

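In 8 of 80 groups of 4 libraries (40 genes in each of 2 tissues), the highest or lowest library stood apart from the other 3 by more than Dixon's limit for 4 values. Chance gives about 1 in 20 such groups, or 4 of 80. In 4 of the 8 the library was fusing replicate 3. It had 85.8 CPM of *CHSY3*, where the other fusing libraries had 35.5 to 43.3 CPM. It had 46.3 CPM of *EXT1* (others 34.9 to 36.8 CPM), 306 CPM of *UGDH* (others 187 to 194 CPM) and 204 CPM of *IMPAD1* (others 120 to 134 CPM). Fusing replicate 2 had 42.7 CPM of *DSE*, where the other fusing libraries had 32.7 to 33.8 CPM. Among free libraries, replicate 3 had 60.9 CPM of *CSGALNACT2* (others 90.1 to 94.1 CPM), replicate 2 had 40.0 CPM of *EXT2* (others 47.6 to 48.7 CPM), and replicate 1 had 4.98 CPM of *NDST3* (others 4.24 to 4.29 CPM).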

How the results depend on the processing

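No filter and the stricter filter kept all 40 members on their side of the threshold, RLE factors 39 and DESeq2 36. Scaling by library totals changed the counts most. It gave 12 members higher and 7 lower (8 and 4 over 2-fold), 1 linker gene lower, 7 heparan sulfate genes higher and 2 lower, and 2 sulfate supply genes higher and 0 lower, and over all genes 60.3% higher and 7.12% lower. Under it the sign turned for *CSGALNACT1* (0.13), *CHPF2* (0.32), *CHST3* (0.071), *CHST12* (0.22), *EXT1* (0.49), *EXT2* (0.31), *EXTL2* (0.26), *GLCE* (0.21), *SLC35B2* (0.49) and *UGDH* (0.64), of which *EXT1* and *UGDH* were called. All 10 shifts follow from the scaling itself, which moved the median of all genes by 0.69. With the replicate number as a block, 4 members were higher, 10 chondroitin and dermatan sulfate genes lower, and 1 heparan sulfate and 1 sulfate supply gene higher. *HS6ST2* turned to −0.014 with that block. It added the 9 calls given beside their genes, and changed no other call. With the sample codes as a block, 8 of these 9 were not made. That block also leaves libraries unpaired, and calls over all genes fell with it. Of all genes, 20.2% were called higher and 19.7% lower with the replicate number, and 15.6% and 15.5% with the codes. Whether the changed pairing or the unpaired libraries removed the 8 calls was not tested. For the gene pairs, an exact permutation of tissues within the numbered pairs cannot go below p = 0.125, the value of each ratio, so that the 6 ratios under the threshold passed it no more with unmoved differences (−0.79 for *CHST3* over *CHST11*, 2.77 for *CHST15* over *CHST11*, −1.5 for *CHSY1* over *EXT1*, −2.09 for *XYLT1* over *XYLT2*, 0.85 for *PAPSS2* over *PAPSS1* and −3.04 for *SULF1* over *SULF2*). With those codes, 1 sulfate supply gene was higher and 0 lower, *CHPF* and *PAPSS1* lost their calls, and *NDST3* (−0.073), *SLC35B2* (0.028) and *UGDH* (0.059) turned. RLE factors and DESeq2 each gave 1 sulfate supply gene higher.

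Leaving out 1 library at a time gave 2 to 4 members higher (4 without free replicate 3) and 13 to 22 lower (22 without fusing replicate 3). Over 2-fold, 7 to 13 were lower (13 without fusing replicate 3). It gave 5 to 10 chondroitin and dermatan sulfate genes lower, 0 to 1 heparan sulfate gene higher, 0 to 1 sulfate supply gene higher and 0 to 1 lower. Uncalled genes near 0 changed sign, with ranges of −0.14 to 0.30 for *CHST11*, −0.034 to 0.14 for *NDST3*, −0.26 to 0.24 for *HS6ST2*, −0.20 to 0.25 for *PAPSS2* and −0.25 to 0.044 for *UGDH*. The ratios kept their sign, at −0.90 to −0.56 for *CHST3* over *CHST11*, 2.27 to 3.20 for *CHST15* over *CHST11*, −1.65 to −1.39 for *CHSY1* over *EXT1*, −2.26 to −1.88 for *XYLT1* over *XYLT2*, 0.68 to 0.98 for *PAPSS2* over *PAPSS1* and −3.31 to −2.81 for *SULF1* over *SULF2*. With 3 against 4 libraries their adjusted exact p ranged between 0.0381 and 0.0762. Depth limits *CHST9*, *NDST4* and *DSEL*, which have few counts.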
